A study of Mus musculus with 25 samples.

Results

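The 8 genes described here encode the proteins by which a mouse macrophage takes up, stores and releases iron: Slc40a1, Tfrc, Fth1, Ftl1, Slc11a1, Slc11a2, Lcn2 and Ireb2. They were chosen by symbol from the 24411 gene symbols of each count file, and all 8 were found in all 25 RNA-seq samples. The samples form 9 conditions. Bone marrow-derived macrophages (BMDMs) from C57BL/6 mice, differentiated over 4 days in DMEM containing M-CSF at 25 ng/ml, gave 7 conditions of 3 samples each: an unstimulated control cultured for 4 h, IFN-γ (100 U/ml) with LPS (100 ng/ml) for 1, 4, 12 or 24 h, IL-4 (10 ng/ml) for 12 h and IL-13 (10 ng/ml) for 12 h. RAW264.7, a macrophage line from a virus-induced tumour of BALB/c mice, grown in RPMI medium without added M-CSF, gave 2 conditions of 2 samples each, a control cultured for 4 h and LPS alone (100 ng/ml) for 4 h. The study asked how macrophage transcription differs between IFN-γ-primed LPS stimulation (M1), LPS alone, IL-4 or IL-13 stimulation (M2) and the cell line. Its BMDMs given LPS alone, which it set against primed BMDMs and against RAW264.7 with LPS, are not among these 25 samples. The paper describes IFN-γ as a pretreatment, or priming, before LPS and gives no length for it. The hours given here are those of the labels and may not count the whole exposure to IFN-γ. The BMDM control of 4 h serves every BMDM comparison, so at 1, 12 and 24 h the stimulus and the time in culture cannot be told apart. At 4 h the times match only in the hours stated.

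Macrophages recycle the iron of old red blood cells. Iron bound to transferrin enters through the transferrin receptor (Tfrc), is carried out of endosomes by DMT1 (Slc11a2) and out of phagosomes by NRAMP1 (Slc11a1), is kept in ferritin shells built of heavy (Fth1) and light (Ftl1) chains, and leaves the cell through ferroportin (Slc40a1), the only known exporter of iron ions in mammals. Lipocalin 2 (Lcn2) is a secreted protein that binds the siderophores with which bacteria collect iron. The iron regulatory proteins, of which Ireb2 encodes the second, bind stem-loops called iron-responsive elements (IREs). A bound IRE in a 5′ UTR blocks translation, and bound IREs in the 3′ UTR of Tfrc protect its mRNA from decay. Counts of mRNA do not show the translational step.

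The matches to an IRE pattern are shown because they divide the 8 genes. Slc40a1, Fth1 and Ftl1 have a match before the coding sequence, Tfrc has matches after it, and the others have none. Each match was read from the GENCODE M21 transcripts on GRCm38, the assembly that mm10 names, and the loop is in capitals within a site of 27 bases. The search took an unpaired C, 5 stem pairs (Watson-Crick or G with T), the loop CAGTGN and the matching stem, on the transcript strand.
Slc40a1, 5′ UTR (chr1:45925466-45925492, minus strand): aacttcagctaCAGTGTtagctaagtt
Fth1, 5′ UTR (chr19:9982733-9982759, plus strand): tcctgcttcaaCAGTGCttgaacggaa
Ftl1, 5′ UTR (chr7:45459780-45459806, minus strand): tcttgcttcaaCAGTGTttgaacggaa
Tfrc, 3′ UTR, first (chr16:32631220-32631246, plus strand): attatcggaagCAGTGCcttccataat
Tfrc, 3′ UTR, second (chr16:32631599-32631625, plus strand): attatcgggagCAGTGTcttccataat
Tfrc, 3′ UTR, next (chr16:32631664-32631690, plus strand): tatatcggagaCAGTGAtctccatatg
Tfrc, 3′ UTR, last (chr16:32631711-32631737, plus strand): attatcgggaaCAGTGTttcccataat
The pattern was present in the 5′ UTRs of 27 of 20857 genes (0.129%) and the 3′ UTRs of 126 of 21643 (0.582%). No match was found in the UTRs of Slc11a1, Slc11a2, Lcn2 or Ireb2, which says only that this pattern is not there. The search is strict, so an IRE with a different loop or stem would be missed in any of the 8 genes. For Ftl1 the site lies in 1 of 2 annotated transcripts with a 5′ UTR, and for Tfrc in 1 of 2 with a 3′ UTR. The labels of the Tfrc sites, first to last, give the order of the matches only.

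Each sample held 2378639 to 3357300 counts on genes, of which 1502618 to 2532496 were left once Rn45s, a ribosomal precursor that took 20.1% to 39.8%, was set aside. Levels are counts per 1e6 counts (CPM) without Rn45s, scaled by TMM factors over the 25 samples. Changes are log2 fold changes with their standard error (SE) from edgeR's quasi-likelihood test, and a gene was called upregulated or downregulated at a Benjamini-Hochberg adjusted p of at most 0.01. The 10 macrophage markers summed to 23081 to 24942 CPM in control BMDMs, 29204 to 33410 CPM at 24 h, 19340 to 24434 CPM in the other BMDM conditions and 8671 to 10604 CPM in RAW264.7, where Mertk was at 0. Single markers went both ways. At 1, 4, 12 and 24 h, 3, 5, 4 and 4 of the 10 were up and 4, 5, 5 and 3 down. Of all genes, 14.7%, 26%, 23.9% and 23.9% were up and 11.3%, 25.6%, 23.4% and 21.3% down. With IL-4 0 were up and 3 down (4.38% and 3.25% of all genes), with IL-13 0 and 2 (5.61% and 4.49%). In resting RAW264.7 against resting BMDMs 2 were higher and 8 lower (31.9% and 33.7%). Markers of other cells also moved with the conditions. The 10 erythroid markers summed to 1.60 to 3.22 CPM in control BMDMs, 17.1 to 27.1 CPM at 4 h and 8.24 to 9.75 CPM at 12 h; the one that could be tested, Tspan33, was up at 4, 12 and 24 h (log2 fold changes 4.70, 3.39 and 3.37), and the 4 hemoglobin genes were at 0 in all samples. The 5 dendritic cell markers summed to 0.534 to 1.09 CPM in control BMDMs and 48.6 to 54.1 CPM at 1 h, where Flt3 and Siglech were at 0. The sum was 14.8 to 18.6 CPM at 4 h, 4.12 to 7.15 CPM at 12 h and 0 to 0.978 CPM at 24 h. Only 1 of the 5 could be tested, and it was up at 1, 4 and 12 h (log2 fold changes 6.85, 5.09 and 3.28). The 6 fibroblast markers summed to 77.0 to 112 CPM in control BMDMs and were at 0 in RAW264.7. Their sum was 94.8 to 145 CPM at 4 h and 55.5 to 103 CPM in the other stimulated BMDMs. Of the 4 that could be tested in the time course, 0 were called at 1 h. At each of 4, 12 and 24 h 1 was up, and at 24 h 1 was down. The part of these in the results was not tested. Fewer cells of a type and less RNA per cell cannot be told apart in these bulk samples. Reads on the opposite strand of Rn45s made up 0.0386% to 0.122% of its counts in the control, 1, 4 and 12 h samples and 0.00603% to 0.0214% in the 24 h, IL-4 and IL-13 samples. That difference moves with each comparison across those sets of samples, and its part in the results was not tested.

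**Figure D1:**
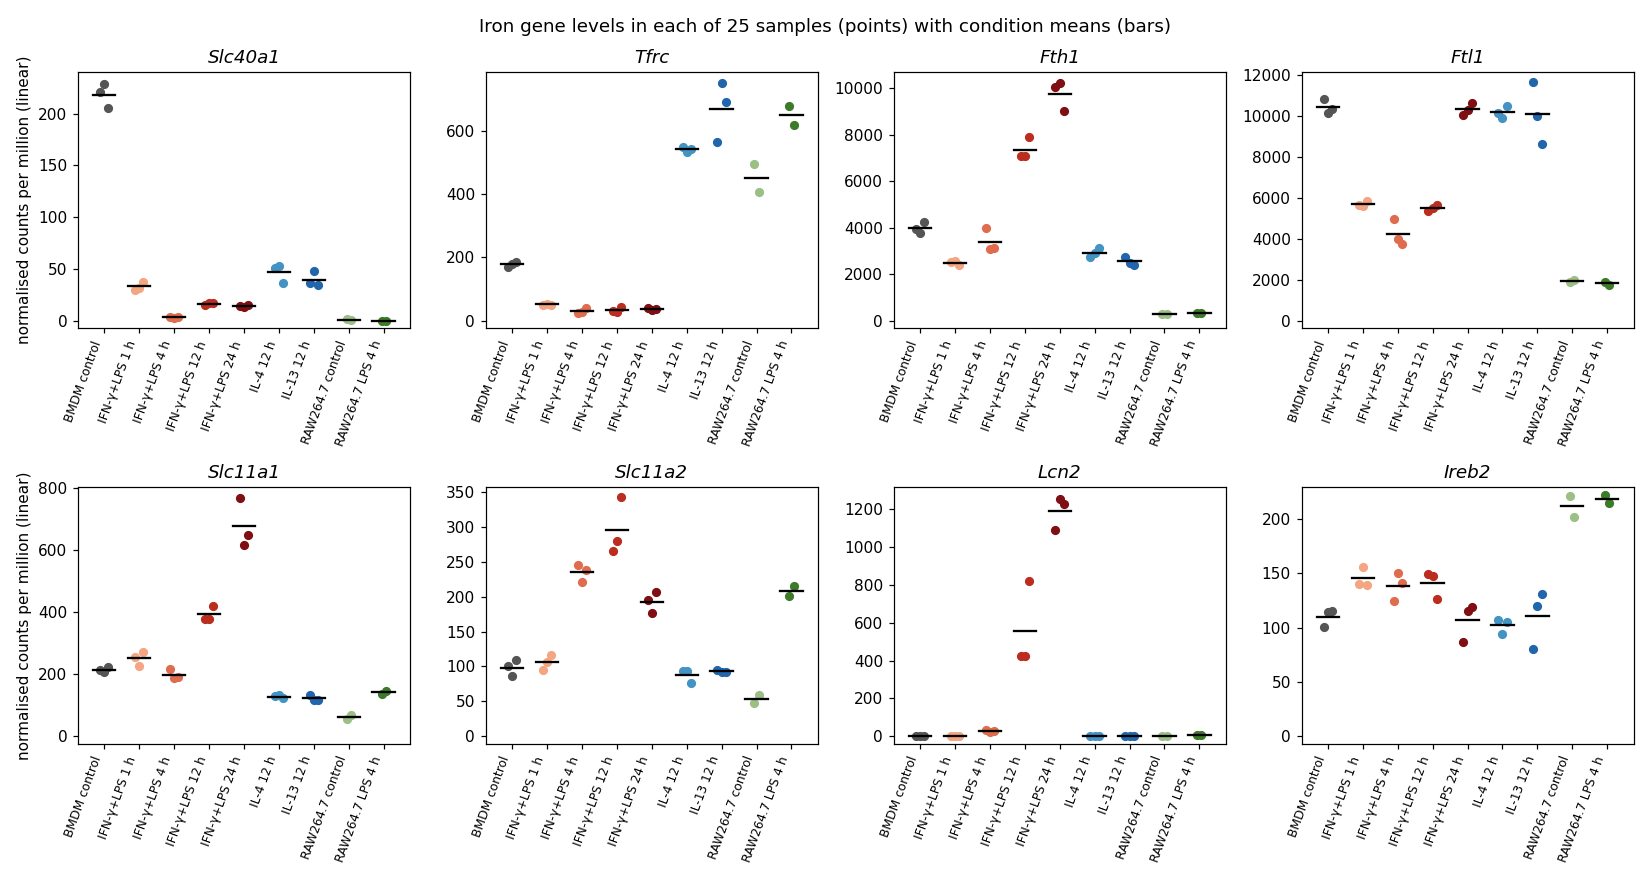
Normalised CPM of the 8 iron genes (linear vertical axes, one panel a gene) in each of the 25 samples by condition; points are samples and bars are condition means. Slc40a1 is highest in the BMDM control (206 to 229 CPM), Tfrc in IL-13, RAW264.7 LPS and IL-4 samples (534 to 749 CPM), and Lcn2 at 24 h of IFN-γ and LPS (1093 to 1255 CPM).

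Slc40a1, the exporter, was downregulated in BMDMs by every stimulus tested. The control samples held 220, 229 and 206 CPM (218 ± 11.7, mean ± SD, n = 3). After 1 h of IFN-γ and LPS the samples held 29.7, 32.2 and 37.9 CPM, and after 4 h 3.54, 3.11 and 4.10 CPM, which are only 4, 4 and 5 counts. At 12 h they held 15.01, 17.6 and 17.7 CPM and at 24 h 14.2, 13.4 and 15.6 CPM. No stimulated sample reached the control range, and the lowest level was that of 4 h. The log2 fold change was -2.74 (SE 0.12) after 1 h, -5.96 (SE 0.20) after 4 h, -3.75 (SE 0.14) after 12 h and -3.92 (SE 0.14) after 24 h, and the 4 h value is 62.3-fold lower (edgeR, adjusted p = 1.82e-29). From 4 to 12 h the level rose again by 2.21 on the log2 scale (SE 0.33), and the samples of 12 and 24 h overlapped, a difference that was not called (-0.17, 95% interval -0.58 to 0.24). With IL-4 the samples held 51.3, 53.4 and 37.0 CPM and with IL-13 36.8, 48.6 and 34.4 CPM. These are log2 fold changes of -2.21 (SE 0.12) and -2.47 (SE 0.13), and the IL-4 and IL-13 samples overlapped each other. In RAW264.7 the gene was near the limit of detection, with 5 and 2 counts in the control samples (1.73 and 0.725 CPM) and 0 counts in both LPS samples, where 3 counts would be 0.556 CPM over the pair. It was not tested there.

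Tfrc, the uptake receptor, moved in opposite directions under the M1 and M2 stimuli. Its control samples held 170, 178 and 187 CPM (178 ± 8.50). The 1 h samples held 50.4, 54.7 and 50.1 CPM, and the 4 h samples 23.9, 27.2 and 41.8 CPM. Later the level stayed low, at 31.8, 29.3 and 43.0 CPM by 12 h and 39.6, 34.8 and 36.2 CPM by 24 h. All 12 stimulated samples lay below all control samples, and the samples of 4, 12 and 24 h overlapped one another. The log2 fold changes were -1.82 (SE 0.13), -2.57 (SE 0.15), -2.40 (SE 0.14) and -2.28 (SE 0.13) at 1, 4, 12 and 24 h. With IL-4 the samples held 550, 534 and 541 CPM and with IL-13 565, 749 and 689 CPM, all above the control. The log2 fold changes of 1.59 (SE 0.09) and 1.89 (SE 0.09) are 3.02-fold and 3.70-fold. IL-13 samples lay above IL-4 samples by 0.30 on the log2 scale (95% interval 0.13 to 0.46), which was not called (edgeR, adjusted p = 0.214). Without IL-13 replicate 1, which was the lowest of its group, the difference was 0.40 and was called (edgeR, adjusted p = 0.00106). In RAW264.7 the control held 494 and 408 CPM and LPS 678 and 619 CPM, a rise of 0.56 on the log2 scale (SE 0.07).

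**Figure D2:**
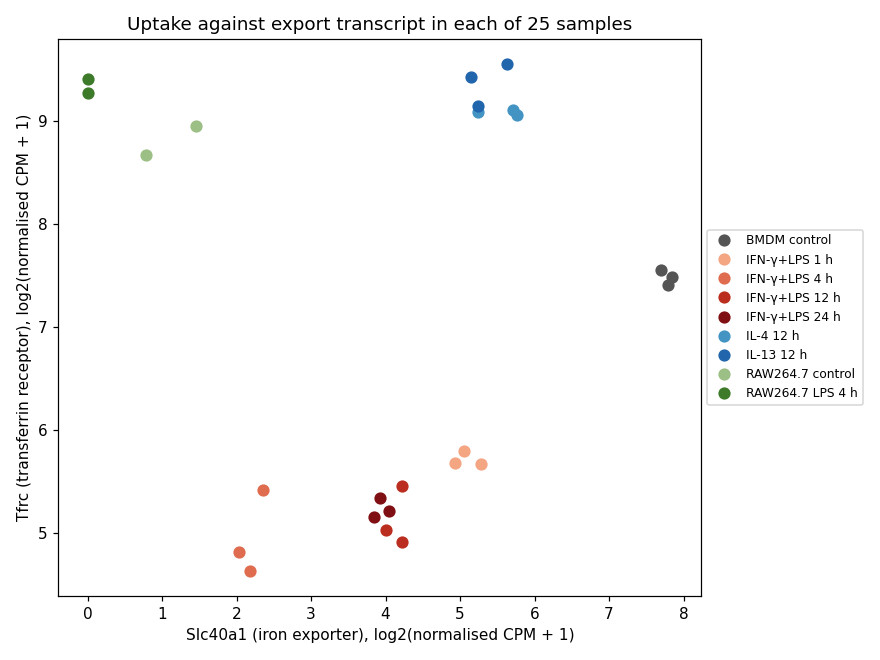
Tfrc against Slc40a1 in each of the 25 samples, both as log2 of normalised CPM plus 1, coloured by condition. The BMDM controls lie at the right, the 12 samples of IFN-γ and LPS low on the Tfrc axis, the IL-4 and IL-13 samples high on it, and the RAW264.7 samples high on it with almost no Slc40a1.

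The counts of Tfrc per count of Slc40a1 put these changes on one scale within each sample. The mean ratio was 0.818 in control BMDMs, 1.57, 8.57, 2.07 and 2.57 at 1, 4, 12 and 24 h of IFN-γ and LPS, 11.8 with IL-4, 16.9 with IL-13 and 424 in RAW264.7 controls. It was above every control value (0.769 to 0.906) in all 18 stimulated BMDM samples. Slc40a1 fell more than Tfrc under IFN-γ and LPS, and the genes moved in opposite directions under IL-4 and IL-13. At 4 h it rests on 4 to 5 counts of Slc40a1 a sample, and in RAW264.7 controls on 5 and 2 (285 and 562), while in the LPS samples of the line it could not be formed. Compared directly at 12 h, Tfrc was lower in M1 than in M2 cells, with log2 fold changes of -3.96 against IL-4 and -4.26 against IL-13 (SE 0.13 each), the latter being 19.2-fold.

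Of the ferritin chains, Fth1 fell early and rose late under IFN-γ and LPS. Its control samples held 3958, 3779 and 4236 CPM. At 1 h it stood at 2526, 2580.5 and 2388 CPM, below every control sample, and at 4 h at 4002, 3097 and 3128 CPM, where 1 sample fell within the control range. At 12 h it had reached 7082, 7074 and 7927 CPM and at 24 h 10068, 10211 and 9010.3 CPM, above every control sample. In time order the log2 fold changes were -0.71, -0.28, 0.84 and 1.29 (SE 0.09 each). The small fall at 4 h (edgeR, adjusted p = 0.00489) was not called by DESeq2 (log2 fold change -0.26, adjusted p = 0.0162), nor without control replicate 1 (-0.29) or 3 (-0.24) or without 4 h replicate 2 (-0.20) or 3 (-0.21). The call was also lost with size factors by relative log expression (-0.26), with Rn45s kept (-0.26) and in one fit over all 25 samples (-0.23). IL-4 and IL-13 lowered it, with 2757, 2939 and 3116 CPM and with 2764, 2499 and 2424 CPM, by log2 fold changes of -0.45 and -0.66 (SE 0.07 each).

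Ftl1 was the most abundant of the 8 transcripts per length in control BMDMs and followed another course. The control samples held 10833, 10146 and 10343 CPM. The 1 h samples held 5674, 5598 and 5829 CPM, the 4 h samples 4975, 3979 and 3751 CPM and the 12 h samples 5365, 5493 and 5664 CPM, all below the control. At 24 h the samples held 10040.2, 10284 and 10629.7 CPM and overlapped the control. The log2 fold changes were -0.91, -1.36 and -0.97 at 1, 4 and 12 h and -0.02 at 24 h (95% interval -0.19 to 0.14), where the gene was not called. With IL-4 (10157, 9913 and 10470.1 CPM) and IL-13 (11650, 9985 and 8623 CPM) it overlapped the control, with log2 fold changes of -0.05 (95% interval -0.20 to 0.10) and -0.07 (95% interval -0.22 to 0.08). Fth1 and Ftl1 have many near-identical pseudogene copies, and reads that map to more than one place (7.30% to 11.9% of reads) are not in these counts, so the absolute level of either chain is uncertain.

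The balance of the chains shifted towards the heavy chain under the M1 stimulus. The ratio of Fth1 to Ftl1 counts was 0.382 ± 0.0237 in control BMDMs. With IFN-γ and LPS it was 0.439 ± 0.0262, 0.805 ± 0.0278, 1.34 ± 0.0576 and 0.948 ± 0.0868, in time order. The lowest 1 h sample met the top of the control range (0.365 to 0.410), and all later samples lay well above it. It was 0.288 ± 0.0148 with IL-4 and 0.256 ± 0.0225 with IL-13, below every control sample. Together the chains took 1.59% of the gene counts without Rn45s in control BMDMs, and 0.773%, 0.562%, 1.11% and 1.88% with IFN-γ and LPS in time order. In RAW264.7 the ratio was 0.149 in control and 0.188 in LPS samples, and the chains took 0.292% and 0.257% of counts.

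**Figure D3:**
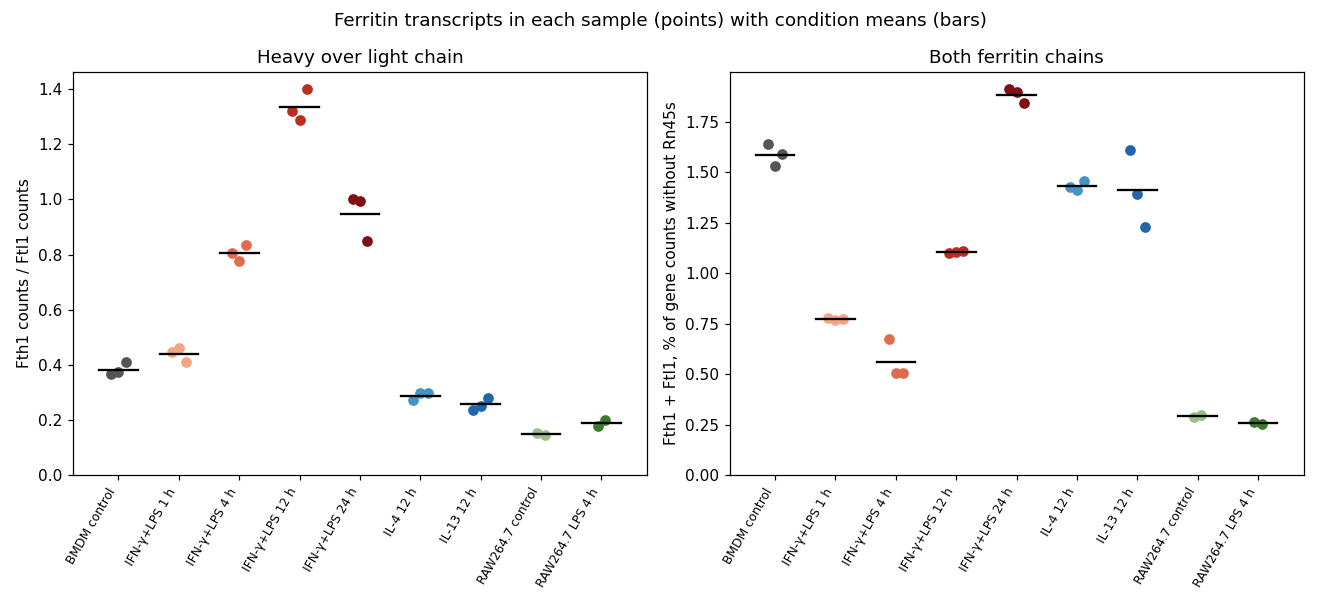
Left, Fth1 counts over Ftl1 counts; right, both chains as a percentage of gene counts without Rn45s, in each sample by condition (points are samples, bars are condition means, axes start at 0). The ratio is highest at 12 h of IFN-γ and LPS (1.29 to 1.40), while the sum of both chains is highest at 24 h.

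Slc11a1 and Slc11a2, the phagosomal and endosomal transporters, both rose under IFN-γ and LPS but at different times. Slc11a1 held 213, 206 and 222 CPM in control BMDMs, 254, 227 and 270 CPM after 1 h and 217, 189 and 190 CPM after 4 h. It then reached 379, 378 and 419 CPM by 12 h and 766, 616 and 649 CPM by 24 h. It was called at 12 h (log2 fold change 0.83, SE 0.10) and 24 h (1.66, SE 0.10), with every sample of those times above every control sample. Slc11a2 held 100.3, 85.7 and 109 CPM in the control and 95.1, 107 and 116 CPM after 1 h. The 4 h samples held 246, 221 and 239 CPM, the 12 h samples 266, 280 and 343 CPM and the 24 h samples 195, 177 and 206 CPM. It was called from 4 h on, with log2 fold changes of 1.20, 1.54 and 0.97 at 4, 12 and 24 h (SE 0.11 each), and it was lower at 24 h than at 12 h (log2 fold change -0.58, SE 0.10). The 4 h change of Slc11a1, -0.16 (SE 0.11), was not called, but scaling by library size alone, which lowered the median gene at 4 h by 0.53, gave -0.69 and a call (edgeR, adjusted p = 1.29e-07). C57BL/6 mice carry a loss-of-function form of Slc11a1, which these counts do not distinguish.

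IL-4 and IL-13 changed the 2 transporters unequally. Slc11a1 fell to 128, 132 and 123 CPM with IL-4 and to 134, 116 and 116 CPM with IL-13, log2 fold changes of -0.75 and -0.83 (SE 0.10 each). Slc11a2 held 93.2, 93.4 and 76.9 CPM with IL-4 and 94.3, 92.6 and 92.6 CPM with IL-13, overlapping the control. Its log2 fold changes were -0.17 (95% interval -0.40 to 0.06) and -0.10 (95% interval -0.33 to 0.13).

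Lcn2 had the widest range of the 8 genes. The control samples held 0, 4 and 0 counts (0, 2.17 and 0 CPM) and the 1 h samples 5, 1 and 1. The 4 h samples held 32.8, 23.3 and 24.6 CPM, the 12 h samples 422, 426 and 822 CPM and the 24 h samples 1093, 1255 and 1227 CPM. From 4 h on, each time lay above the one before without overlap, and the 12 h samples were the most uneven. The log2 fold changes of 5.03 (SE 0.98), 9.41 (SE 0.55) and 10.56 (SE 0.52) at 4, 12 and 24 h rest on 4 control counts and are wide, with a 95% interval of 9.54 to 11.57 at 24 h. All 4 counts are in control replicate 2, and without it the control was at 0, so the size of these changes depends on that sample. Lcn2 held 1 count in each IL-4 sample and 2, 6 and 2 counts in the IL-13 samples, too few to be tested against the control or each other. Neutrophils also make lipocalin 2. The 10 neutrophil and granulocyte precursor markers examined summed to 14.6 to 25.1 CPM in the control and to 32.2 to 44.0, 37.3 to 51.7, 28.0 to 28.9 and 21.9 to 24.0 CPM in the 1, 4, 12 and 24 h samples. Of them 3 were at 0 in the control (Elane, Mpo and Retnlg), 6 at 12 h and 7 at 24 h. Only 3 could be tested: S100a8 was up at all 4 times (log2 fold changes 1.24, 1.32, 1.41 and 1.11), S100a9 was up at 1 and 4 h (1.31 and 1.48) and down at 24 h (-2.01), and Ngp was down at 24 h (-5.94). Their part in the Lcn2 result was not tested.

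Ireb2 varied least. It held 101, 114 and 115 CPM in control BMDMs, 140, 156 and 140 CPM after 1 h and 124, 150 and 141 CPM after 4 h. The 12 h samples held 150, 148 and 127 CPM and the 24 h samples 87.0, 115 and 119 CPM. The samples of 1, 4 and 12 h all lay above the control, but none of these changes was called. At 1 h the log2 fold change of 0.37 (SE 0.12) narrowly missed the threshold (edgeR, adjusted p = 0.0103), and it passed under 6 of the alternative settings, with adjusted p from 0.00376 to 0.00951. That change was not called with DESeq2, with scaling by library size alone or in any fit without 1 sample (0.31 to 0.41). With IL-4 (107, 93.9 and 106 CPM) and IL-13 (80.0, 120 and 131 CPM) the samples overlapped the control.

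**Figure D4:**
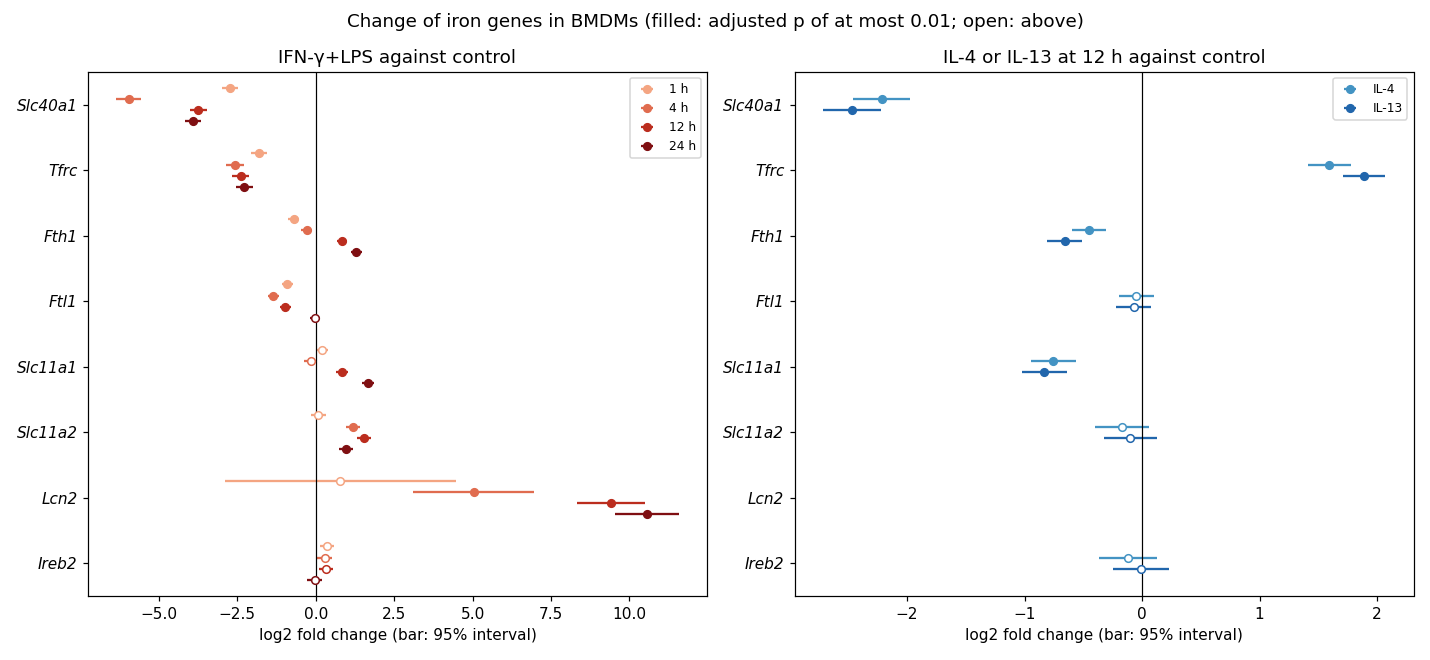
Log2 fold change of each iron gene against control BMDMs, with its 95% interval, for IFN-γ and LPS at 1, 4, 12 and 24 h (left) and for IL-4 and IL-13 at 12 h (right); filled points have an adjusted p of at most 0.01 and open points do not. Slc40a1 lies below 0 in both panels, while Tfrc lies below 0 on the left and above 0 on the right; Lcn2 was not tested on the right.

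Counted over the 8 genes, IFN-γ and LPS called 0 up and 4 down at 1 h, where 14.7% of the 9568 genes tested were up and 11.3% down. At 4 h 2 were up and 4 down (26% and 25.6% of all genes), at 12 h 4 were up and 3 down (23.9% and 23.4%), and at 24 h 4 were up and 2 down (23.9% and 21.3%). The background is high at 4, 12 and 24 h, so the counts alone do not set the iron genes apart there. At 1 h it is lower, and the 8 genes were not tested as a set. The median log2 fold change of the 8 was -0.31, -0.22, 0.57 and 0.47 in time order, against -0.03, -0.07, -0.03 and 0.02 for all genes tested. From 1 to 4 h 3 of the 8 rose and 4 fell (19.8% and 19.1% of all genes), from 4 to 12 h 6 rose and 0 fell (16.7% and 19.2%), and from 12 to 24 h 4 rose and 1 fell (5.31% and 8.9%).

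IL-4 called 1 up and 3 down of the 7 iron genes tested, where 4.38% and 3.25% of 9252 genes were. IL-13 also called 1 up and 3 down, where 5.61% and 4.49% were. Both comparisons share the control samples. In both, Tfrc was the gene that rose and Slc40a1, Fth1 and Slc11a1 were those that fell. Their median over the 7 genes was -0.17 and -0.10, against -0.01 and -0.01 for all genes. IL-13 against IL-4 called 0 of 7 by edgeR, where 0.0865% of all genes were higher and 0.0216% lower. Of the 7, 2 (Tfrc and Fth1) had an unadjusted p under 0.05, and DESeq2 called 0.

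M1 and M2 cells at the same time of 12 h differed in nearly every iron gene. Against IL-4, 5 were higher and 3 lower in IFN-γ and LPS, and against IL-13 4 were higher and 3 lower, where 21.1% and 19.9% of 10612 genes were higher and lower against IL-4 and 21% and 20% against IL-13. Fth1 was higher by 1.32 and 1.52 on the log2 scale (SE 0.08 each), Slc11a1 by 1.62 and 1.68 (SE 0.10 each), Slc11a2 by 1.75 and 1.67 (SE 0.11 each) and Lcn2 by 9.81 (SE 0.51) and 8.25 (SE 0.43). The Lcn2 values rest on 3 counts over all IL-4 samples and 10 over all IL-13 samples, so their size is uncertain. Slc40a1 was lower, with log2 fold changes of -1.50 and -1.26 (SE 0.19 each), as was Ftl1, with -0.89 and -0.87 (SE 0.08 each). Ireb2 was called against IL-4 (0.47, SE 0.12) and not against IL-13 (0.35, 95% interval 0.11 to 0.59). Its call against IL-4 was lost without IL-4 replicate 2 (0.41) and with scaling by library size alone (0.12), and against IL-13 it was called without 12 h replicate 3 (0.43) or IL-13 replicate 3 (0.49).

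Resting RAW264.7 cells differed from resting BMDMs in 7 of the 8 genes, 2 higher and 5 lower, where 31.9% and 33.7% of 10612 genes were. Slc40a1 was lower, with a log2 fold change of -7.39 (SE 0.25) that rests on 7 counts in the line. Fth1 (-3.78, SE 0.11), Ftl1 (-2.42, SE 0.10), Slc11a1 (-1.81, SE 0.12) and Slc11a2 (-0.88, SE 0.14) were lower too. Tfrc was higher by 1.34 (SE 0.11) and Ireb2 by 0.94 (SE 0.12). The line and the primary cells also differ in mouse strain, medium and M-CSF, and these cannot be told apart from the cell type. Per kilobase of transcript, Ftl1 stood at 10786 CPM in control BMDMs, Fth1 at 4296, Slc11a1 at 92.3, Slc40a1 at 64.8, Tfrc at 36.4, Slc11a2 at 32.5, Ireb2 at 19.0 and Lcn2 at 0.791. In control RAW264.7 cells the order was Ftl1 at 2010.2 CPM per kilobase, Fth1 at 312, Tfrc at 92.2, Ireb2 at 36.7, Slc11a1 at 26.4, and Slc11a2 at 17.7, with Lcn2 and Slc40a1 too low to be ordered (2 and 7 counts).

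LPS in RAW264.7 upregulated 4 of the 6 genes that could be tested, Tfrc among them, and the other two were not called. Of 9406 genes, 15.1% were higher and 12.8% lower. Slc11a2 rose from 48.2 and 58.7 to 201 and 215 CPM (log2 fold change 2.004, SE 0.11), and Slc11a1 from 55.2 and 67.0 to 135 and 146 CPM (1.25, SE 0.11). Fth1 held 289 and 291 CPM in the control and 338 and 348 CPM with LPS, and its log2 fold change of 0.28 (SE 0.08) was not called by DESeq2 (adjusted p = 0.0381), nor in one fit over all 25 samples (0.24, edgeR adjusted p = 0.0922), nor with scaling by library size alone (0.10), nor without control replicate 1 (0.28) or 2 (0.29) or LPS replicate 2 (0.26). Ftl1 held 1893 and 1999 CPM in the control and 1903 and 1753 CPM with LPS, and was not called, but scaling by library size alone gave a log2 fold change of -0.23 and a call (edgeR, adjusted p = 0.00155). Ireb2 held 221 and 202 CPM in the control and 222 and 215 CPM with LPS, a log2 fold change of 0.09 (95% interval -0.08 to 0.25). Lcn2 gave 2 and 0 counts in the control and 19 and 10 with LPS. The 4 samples share one estimate of spread over all genes, so the SEs of this comparison rest on that estimate more than on the 2 samples of each condition.

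At 4 h the response of RAW264.7 to LPS lay above that of BMDMs to IFN-γ and LPS for 5 of the 8 genes and below it for 0, where 9.75% and 15.3% of 10612 genes did. The difference of log2 fold changes was 3.04 for Tfrc (SE 0.19), which fell in BMDMs and rose in the line. It was 1.31 for Slc11a1 (SE 0.17), 1.21 for Ftl1 (SE 0.13), 0.71 for Slc11a2 (SE 0.18) and 0.47 for Fth1 (SE 0.14). Slc40a1 (1.58, 95% interval -4.86 to 8.02) and Lcn2 (-1.40, 95% interval -7.35 to 4.55) had too few counts in the line to be compared, and Ireb2 was not called (-0.29, 95% interval -0.64 to 0.06). Without RAW264.7 control replicate 1, only 3 genes were called: Fth1 (0.47) and Slc11a2 (0.57) were lost. The Fth1 call was also lost without RAW264.7 control replicate 2 (0.48), LPS replicate 1 (0.49) or 2 (0.46), BMDM control replicate 3 (0.41) or 4 h replicate 2 (0.41) or 3 (0.40). The BMDMs received IFN-γ and the line did not, so the cell type and the stimulus cannot be told apart.

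**Figure D5:**
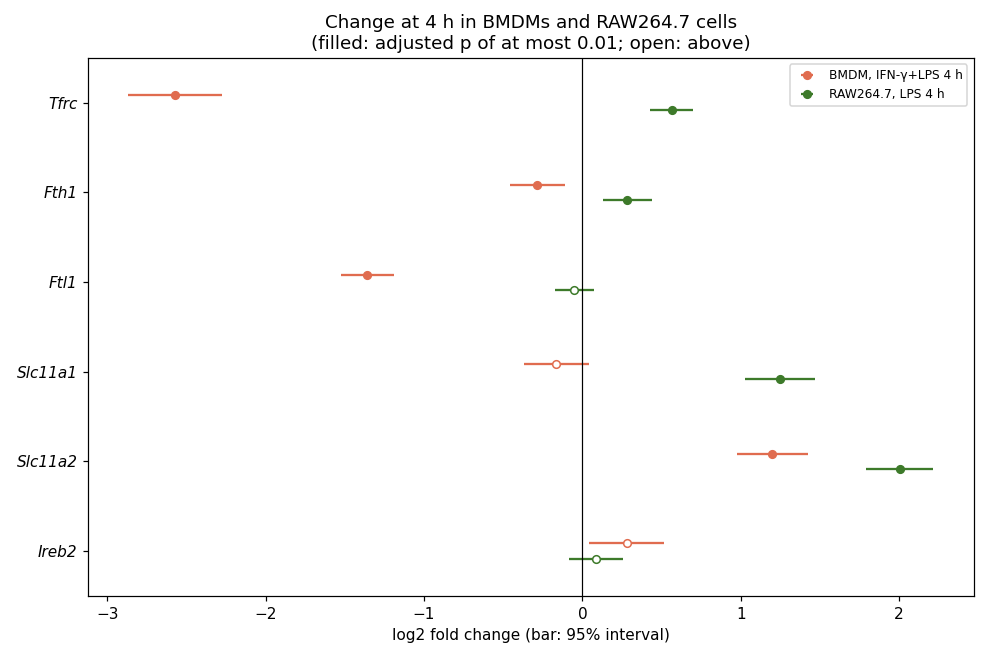
Log2 fold change at 4 h, with its 95% interval, in BMDMs given IFN-γ and LPS and in RAW264.7 cells given LPS, each against its own control; filled points have an adjusted p of at most 0.01. Tfrc lies at -2.57 in BMDMs and 0.56 in RAW264.7; Slc40a1 and Lcn2 were not tested in the line and are left out.

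Other genes of iron handling were taken by list, and their calls under IFN-γ and LPS are to be read against all genes. Of 13 other transport and reduction genes, 6 were expressed enough to be tested, and at 12 h 1 was up and 4 down, where 23.9% of all genes were up and 23.4% down. Cp, the ceruloplasmin that oxidises iron as it leaves the cell, rose to 143 ± 2.14 CPM at 24 h from 2.16 ± 0.952 (log2 fold change 6.00, SE 0.62). Slc39a14, a zinc transporter that also carries iron, peaked at 75.7 ± 7.94 CPM at 4 h from 8.60 ± 1.88 (3.07, SE 0.22). Steap3, the endosomal ferrireductase that serves transferrin uptake, fell from 64.0 to 9.11 CPM at 12 h (-2.86, SE 0.20), Trf, which encodes transferrin, from 821 to 123 CPM at 24 h (-2.74, SE 0.15), and Slc39a8 from 17.4 to 3.49 CPM at 24 h (-2.27, SE 0.31).

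Of 7 tested genes of iron sensing and regulation, 3 were up and 2 down at 12 h, beside 23.9% and 23.4% of all genes. Spic, a factor of iron-recycling macrophages, rose from 1.43 to 96.4 CPM (log2 fold change 5.95, SE 0.26) and Hif1a, a hypoxia factor, from 85.3 to 446 CPM (2.34, SE 0.11). Hfe, the hemochromatosis gene, fell to 18.7 CPM at 12 h from 63.6 (-1.80, SE 0.18) and rose with IL-4 and IL-13 to 107 and 109 CPM (0.73 and 0.75, SE 0.13 each), the one gene of the list called with those cytokines. Bach1, a repressor of heme-responsive genes, fell from 193 to 65.8 CPM at 24 h (-1.56, SE 0.11).

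Of 7 tested genes of heme uptake, transport and breakdown, 1 was up and 5 down at 4 h (26% and 25.6% of all genes), and 4 were up and 2 down at 24 h (23.9% and 21.3%). Hmox1, the heme oxygenase that frees iron from heme, fell at 1 and 4 h and rose at 12 and 24 h, like Fth1. Control samples held 190 ± 17.3 CPM, 4 h samples 46.0 ± 1.48 and 12 h samples 772 ± 145, with log2 fold changes of -2.10 (SE 0.14) and 1.97 (SE 0.10). Blvrb, a biliverdin reductase, rose to 316 CPM at 24 h from 89.1 (1.82, SE 0.11), and Lrp1, the receptor for heme bound to hemopexin, fell from 1467 to 241 CPM at 12 h (-2.65, SE 0.29).

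All 12 genes of mitochondrial iron import and heme synthesis were tested, and at 12 h 2 were up and 3 down, near the 23.9% and 23.4% of all genes. Slc25a37, the mitochondrial iron importer mitoferrin 1, rose from 14.7 to 138 CPM at 4 h (log2 fold change 3.17, SE 0.16), and Alas1, the first enzyme of heme synthesis, from 120 to 456 CPM at 12 h (1.88, SE 0.10). Alas1 also rose with IL-4 (0.73, SE 0.10), with IL-13 (0.69, SE 0.10) and with LPS in RAW264.7 (1.02, SE 0.14). Alad, the next enzyme of the pathway, went from 7.89 to 1.63 CPM at 4 h (-2.26, SE 0.55), and Abcb10 from 19.4 to 6.26 CPM at 12 h (-1.67, SE 0.28). Of 14 tested genes of iron-sulfur cluster assembly 4 were up and 1 down at 12 h, against the same background. Ciapin1 rose from 14.2 to 46.9 CPM at 4 h (1.67, SE 0.19). Of 3 tested genes of ferritin breakdown and iron chaperoning 1 was up and 0 were down at 12 h, against that background as well.

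At 1, 4, 12 and 24 h in turn, the transport and reduction list had 1, 2, 1 and 1 genes up and 2, 2, 4 and 3 down of 6, and the sensing list 3, 3, 3 and 3 up and 0, 3, 2 and 2 down of 7. The heme breakdown list had 1, 1, 3 and 4 up and 1, 5, 4 and 2 down of 7, the heme synthesis list 1, 2, 2 and 3 up and 0, 3, 3 and 2 down of 12, and the iron-sulfur list 1, 2, 4 and 5 up and 0, 1, 1 and 2 down of 14. The ferritin breakdown and chaperone list had 0, 2, 1 and 1 up and 1, 1, 0 and 0 down of 3. Of all genes, 14.7%, 26%, 23.9% and 23.9% were up and 11.3%, 25.6%, 23.4% and 21.3% down at these times. Some counts lay well above those shares, such as 4 of 6 transport and reduction genes down at 12 h and 5 of 7 heme breakdown genes down at 4 h. The counts of the heme synthesis list lay nearer to them. The iron-sulfur list had fewer genes down than those shares at each time, such as 1 of 14 at 4 h. Its counts up lay below them at 1 and 4 h and above them at 12 and 24 h. The lists are short and were not tested as sets. With IL-4 the calls were Hfe and Alas1, both up, where 4.38% of all genes were up and 3.25% down. With IL-13 they were the same genes, up, and Hmox1 (-0.40, SE 0.11) and Slc25a37 (-1.18, SE 0.31), down, where 5.61% and 4.49% of all genes were.

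Across the 9 condition means, on log2 of CPM plus 1, Ireb2 ran opposite to Ftl1 (Pearson's r = -0.98, n = 9 conditions) and to Slc40a1 (-0.83), and Slc40a1 ran with Ftl1 (0.89), as did Slc11a1 with Lcn2 (0.83). Slc40a1 and Tfrc were hardly related (-0.10). These values describe 9 points that share the BMDM and RAW264.7 split. Among the 10564 genes that reached a mean of 5 CPM in any condition, those whose 9 means were most like Slc40a1 were Mkl2, Calcoco1 and Nbr1 (r from 0.97 to 0.98), and for Tfrc they were Zfp764, Dcaf17 and Dnmt3a (0.96 to 0.98). For Fth1 they were Gpr107, Ppp1r9a and Ppfibp2 (each 0.99), and for Ftl1 Magee1, Tle6 and Nprl2 (0.98 to 0.99). For Slc11a1 they were Fyb, Leng9 and Il11 (0.95 to 0.96), and for Slc11a2 Ccl22, Tnfrsf8 and Micall2 (0.95 to 0.96). For Lcn2 they were Lad1, Fpr1 and Irak3 (0.98 to 0.99), and for Ireb2 Rcn2, 2900060B14Rik and Api5 (0.98 to 0.99).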

How the data were processed

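RNA was extracted from BMDMs and RAW264.7 cells, depleted of ribosomal RNA per the study's methods (the labels name the molecule polyA RNA) and sequenced with strand kept. The authors trimmed the reads (Trimmomatic 0.33), aligned them to mm10 with STAR 2.5.1 and deposited raw read counts per gene symbol for each sample, unstranded and by strand. The annotation release is not given in the sources used here. Counts of the gene's strand were used without Rn45s; the other strand held 0.628% to 1.05% of gene counts. Groups came from the sample labels. The 15 time course samples, the 9 samples of control, IL-4 and IL-13 cells, the 4 RAW264.7 samples and all 25 together were fitted separately in R 4.3.3 with edgeR 4.0.16 (filterByExpr, TMM, robust quasi-likelihood, 9568, 9252, 9406 and 10612 genes), with Benjamini-Hochberg adjustment over all genes of a comparison, in 15 comparisons. SE was derived as the size of the log2 fold change divided by √F, and 95% intervals take 1.96 SE on either side. A gene with fewer counts than the filter asks has no test, and at this depth a level under 3 counts is not separable from 0. Biological replicates were independent RNA samples per the study's methods. Replicates of each condition were compared, and none held identical counts.

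All 8 iron genes were named in every comparison. From each list of related genes, up to 6 past the study's fold cutoffs with a condition mean of at least 5 CPM were named, and for each iron gene the 3 genes most like it. Members and lists were chosen with earlier results of these data known. Further alternatives were DESeq2 1.42.0, other scalings and filters, unstranded counts, the replicate block and leaving out samples. The scripts were tested on simulated data.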

Additional observations from a re-analysis of the deposited data

Results flagged for a closer look

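These results are listed because the effect of a stimulus differed between cell types or time points by a test of the difference itself. Between RAW264.7 with LPS and BMDMs with IFN-γ and LPS at 4 h, the log2 fold changes differed by 3.04 for Tfrc, 1.31 for Slc11a1, 1.21 for Ftl1, 0.71 for Slc11a2 and 0.47 for Fth1, of 8 genes compared. Each is higher in the line, and the line received no IFN-γ.

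Along the IFN-γ and LPS time course, 7 of the 8 genes changed between 1 and 4 h, where 19.8% of all genes rose and 19.1% fell. The log2 steps were -3.22 for Slc40a1, -0.76 for Tfrc, -0.45 for Ftl1, -0.36 for Slc11a1, 0.42 for Fth1, 1.12 for Slc11a2 and 4.24 for Lcn2. Slc11a1 was not called there without 1 h replicate 1 (-0.35) or 3 (-0.30) or 4 h replicate 2 (-0.32) or 3 (-0.33), nor was Lcn2 without 1 h replicate 3 (3.82) or 4 h replicate 1 (4.09). Between 4 and 12 h 6 rose and 0 fell, where 16.7% and 19.2% of all genes did: Slc40a1 by 2.21, Fth1 by 1.12, Slc11a1 by 0.99, Ftl1 by 0.39, Slc11a2 by 0.34 and Lcn2 by 4.38. Slc11a2 was not called there without 4 h replicate 2 (0.29) or 3 (0.35) or 12 h replicate 3 (0.24). Between 12 and 24 h 4 rose and 1 fell, where 5.31% and 8.9% did: Lcn2 by 1.14, Ftl1 by 0.95, Slc11a1 by 0.83 and Fth1 by 0.45, and Slc11a2 changed by -0.58. The Lcn2 step was not called without 12 h replicate 1 (0.97) or 2 (0.99) or 24 h replicate 2 (1.10) or 3 (1.12). Fth1 is the gene of the 8 whose change against control turned from a fall at 1 and 4 h to a rise at 12 and 24 h. Its fall at 4 h was small (-0.28) and was not called under several alternatives, DESeq2 among them.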

How the results depend on the processing

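No log2 fold change of an iron gene that was called reversed its direction under any alternative. Of 115 values, 112 kept their side of the threshold with DESeq2, 113 with size factors by relative log expression, 112 with no filter beyond 1 count, 114 with unstranded counts, 112 with Rn45s kept, 113 with the replicate block and 109 with scaling by library size only, which was added after seeing that TMM factors ran from 0.717 to 1.32. One fit over all 25 samples kept 79 of 83, and leaving out 1 sample kept 668 of 702. Scaling by library size only moved the median log2 fold change of all genes by -0.19, -0.53, -0.31 and -0.22 at 1, 4, 12 and 24 h and by -0.18 in RAW264.7, and so moved the counts of genes called. Against control these became 1844 lower (1080 before) at 1 h, 1487 higher and 4641 lower (2486 and 2446) at 4 h and 3408 lower (2236) at 12 h. From 1 to 4 h they became 1223 higher and 3309 lower (1895 and 1823), and from 4 to 12 h 2430 higher (1596). In RAW264.7 they became 876 higher and 2007 lower (1418 and 1207). For M1 against M2 they became 3551 lower (2111) with IL-4 and 1469 higher and 3772 lower (2231 and 2119) with IL-13, for IL-13 against IL-4 1 lower (2), and for the difference of responses 2234 higher and 954 lower (1035 and 1619). The other shifts of the median were -0.34 from 1 to 4 h, 0.22 from 4 to 12 h, 0.24 between the resting cells, -0.35 and -0.37 for M1 against IL-4 and IL-13 and 0.44 for the difference of responses. The share of calls that were higher went from 56.6%, 50.4%, 50.6% and 52.8% to 35.6%, 24.3%, 31.1% and 36.0% at the 4 times, from 51.0%, 46.4% and 37.4% to 27.0%, 65.6% and 52.2% for the 3 steps between them, from 54.0% to 30.4% in RAW264.7, from 51.5% and 51.3% to 29.6% and 28.0% for M1 against IL-4 and IL-13, and from 39.0% to 70.1% for the difference of responses. With this scaling the rise of Fth1 from 1 to 4 h was not called (0.09), and a fall of Ireb2 was (-0.43).

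DESeq2 gave 289 genes higher from 12 to 24 h (508), 25.7% of its calls, 173 lower with IL-4 (301), 252 lower with IL-13 (415), 754 higher and 472 lower in RAW264.7, and 3 higher and 1 lower for IL-13 against IL-4 (8 and 2). No filter beyond 1 count gave 16 higher for IL-13 against IL-4. One fit over all samples gave 0 lower there and 944 higher in RAW264.7. Leaving out 1 sample gave 336 to 457 higher from 12 to 24 h, 187 to 239 lower with IL-4, 2 to 18 higher and 1 to 2 lower for IL-13 against IL-4, 763 to 971 lower in RAW264.7, 0 to 1 iron genes called for IL-13 against IL-4 and 3 to 5 for the difference of responses. In RAW264.7 a sample left alone was assumed to vary like the others. Ireb2 was also called at 12 h with no filter beyond 1 count (0.35), in one fit over all samples (0.36) and without 12 h replicate 3 (0.42), from 12 to 24 h with Rn45s kept (-0.40) and without that replicate (-0.45), and for M1 against IL-13 with no filter beyond 1 count (0.37). Samples that share a replicate number hardly deviated together in the time course. Their mean correlation was 0.0215, against -0.0108 for other numbers, with 3 of 30 pairs over 0.1. Pairing by number was therefore not evident, but these values cannot exclude a shared preparation. With the replicate block, Ireb2 became called at 1 h (0.37, edgeR adjusted p = 0.00564) and for M1 against IL-13 (0.36, edgeR adjusted p = 0.00852). Depth limits Lcn2 outside 4 to 24 h and Slc40a1 at 4 h and in RAW264.7.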
